A study of Schizosaccharomyces pombe with 13 samples.

Results

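Genes for the RNA polymerases and for Mediator were followed in fission yeast (Schizosaccharomyces pombe) that lacked xap5, pht1 or both. A gene was included when its annotated description named an RNA polymerase or the Mediator complex. That wording chose 74 of the 5747 sense entries, and 11 of these 74 genes were also listed among the 1561 antisense entries. Of the 74, 7 encode subunits of RNA polymerase I alone, 2 encode subunits of polymerases I and III, 5 encode subunits of all 3 enzymes, 7 encode subunits of polymerase II alone and 10 encode subunits of polymerase III alone. Another 19 encode Mediator subunits. The other 24 encode initiation, elongation and termination factors, a repressor, assembly and import proteins, and a pair of polymerases outside these 3 enzymes.

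All strains were haploid, of ED668 background, and carried ade6-M216, ura4-D18 and leu1-32, and all were collected in exponential growth at 37 °C in EMM50 after a preculture in YES at 30 °C. Wild type (h+) had 4 libraries. The strain without xap5 (h+, SPCC1020.12c::KanMx4, from the Bioneer collection), the strain without pht1 (h-, SPBC11B10.10c::NatMx4) and the strain without either gene (h-, both cassettes) had 3 libraries each. Histone variant H2A.Z is the product of pht1, and the product of xap5 is a nuclear protein conserved in eukaryotes. The labels do not give the number of independent isolates behind each deletion or how the replicates were grown, so each p-value covers only how far these libraries differ, which may be technical in part.

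Polymerase I transcribes the large ribosomal RNA precursor, polymerase II transcribes messenger RNAs and many noncoding RNAs, and polymerase III transcribes transfer RNAs and the 5S ribosomal RNA. In each enzyme the largest and the second largest subunit form the active centre, smaller subunits form the stalk and the assembly platform, and a few small subunits are common to all of them. Mediator is a large complex with head, middle, tail and kinase modules that links gene-specific regulators to polymerase II. Budding yeast is known to tune the genes of polymerases I and III together with those of ribosome production.

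Every fold given here is the authors' deposited log2 fold change of a deletion strain against wild type, and a gene was called higher or lower when the authors' deposited adjusted p-value was under 0.05. The values of single libraries and standard errors were not used here, so the spread between replicates enters only through that p-value. A fold refers to a gene's share of the sequenced RNA of the culture, and fewer cells with a transcript cannot be told apart from less of it per cell. Libraries held 11.8 M reads on average, as stated in the labels.

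Some values went against the labels. In the xap5 deletion, labelled h+ like wild type, 5 of 10 genes specific to M cells were called lower, among them the M regulator mat1-Mc (deposited log2 fold −4.27, adjusted p = 4.71e-25) and the pheromone gene mfm2 (−2.62). In the pht1 and double deletions, labelled h-, 1 and 1 of these 10 were lower and 0 and 9 were higher, with mat1-Mc at 0.16 and 0.84. Of 4 genes specific to P cells, 1, 0 and 1 were higher in the 3 deletions and 0 were lower. Each of these folds is against wild type, so the mating-type label in doubt may be that of wild type. Both deleted genes had lower entries where the labels place their deletion. The deposited folds of the xap5 entry were −3.11, 0.33 and −2.11 in the xap5, pht1 and double deletions, and those of the pht1 entry were −0.03, −2.13 and −1.55. A stretch inside xap5 (chrIII:755406-755468) had a deposited log2 fold of −7.00 in the xap5 deletion and of −0.09 (adjusted p = 0.964) in the double deletion. Statements on the double deletion therefore rest on its label, and in all 3 comparisons an effect of the deletion cannot be told apart from mating type.

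The 3 stretches below stand for the sequence contrasts among the subunit genes. They lie before the gene starts of rpa49, which fell in the xap5 and double deletions, of rpb4, which fell in all 3 deletions, and of rpb2, which was called in none. Sequences are from RefSeq (assembly ASM294v3), read on the strand of each gene, and all 74 genes were found in that annotation. Capitals in rpa49 (chrI:3927322-3927351, minus strand) mark CAGTCACA on the opposite strand, 61 bases before the gene start. These letters are known as the HomolD box of ribosomal protein gene promoters in this yeast. The 30 bases lie inside a neighbouring coding gene on the other strand, whose annotated span also covers all of rpa49. Capitals in rpb4 (chrII:1055359-1055508, plus strand) and rpb2 (chrI:850486-850635, plus strand) mark TATAAA, the letters of a TATA box, on the strand of the gene and 62 and 119 bases before its start.
rpa49: ttcgcagcctcTGTGACTGtacactacact
rpb4: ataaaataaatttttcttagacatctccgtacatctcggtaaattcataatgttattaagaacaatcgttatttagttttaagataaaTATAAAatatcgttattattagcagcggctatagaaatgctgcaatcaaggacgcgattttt
rpb2: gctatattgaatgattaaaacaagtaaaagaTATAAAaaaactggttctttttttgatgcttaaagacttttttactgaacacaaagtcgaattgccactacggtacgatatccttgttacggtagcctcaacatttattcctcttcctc

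Over the window from 250 bases before to 50 bases after the gene start, on both strands, CAGTCACA was found for 1 of the 74 genes (rpa49) and for 2.67% of 5124 coding genes. The first letters of the companion HomolE box, ACCCTACC, were found for 0 of the 74 and for 1.62% of coding genes. TATAAA was found for 41 of the 74 (55.4%), against 48.1% of coding genes. Polymerase II subunit genes held it in 6 of 7 cases, all except rpb9, polymerase III genes in 8 of 10 and Mediator genes in 10 of 19. Polymerase I genes held it in 2 of 7 cases (nuc1 and ker1). These are matches of letters, and whether a factor binds there was not tested.

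Polymerase subunits were lower in the xap5 deletion across all 3 enzymes, while Mediator and the accessory factors were mostly not called. In the authors' deposited table, of the 31 polymerase subunit genes, 24 fell and 0 rose, a share of 77.4% lower. Of all sense entries, 20.6% were lower and 21.1% higher in this comparison, and of protein-coding entries 23.0% were lower. Among all 74 genes 26 were lower (35.1%) and 5 higher (6.76%). The median log2 fold was −0.69 for polymerase I, −0.41 for polymerase II, −0.27 for polymerase III, 0.02 for Mediator and −0.04 for the factors, against −0.01 for all sense entries. Differences between the enzymes were not tested, because the subunits of an enzyme are not replicates.

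The pht1 deletion called fewer of these genes, and those of polymerase II stood at the front. Of the 31 polymerase subunits 7 fell and 0 rose (22.6% lower), where 11.1% of all sense entries were lower and 13.5% higher. Polymerase II accounted for 4 of these 7, polymerase III for 2 and the common subunits for 1. Polymerase I had 0 of 7. Among all 74 genes 13 were lower (17.6%) and 1 was higher (1.35%).

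Without both genes 27 of the 31 polymerase subunits fell (87.1%) and 0 rose, where 34.3% of all sense entries were lower and 30.5% higher. The median log2 folds were −0.91 for polymerase I, −0.93 for the subunits common to all 3 enzymes, −0.88 for polymerase II and −0.49 for polymerase III, against −0.05 for all sense entries. Over the 74 genes, 43 were lower (58.1%) and 7 were higher (9.46%).

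**Figure D1:**
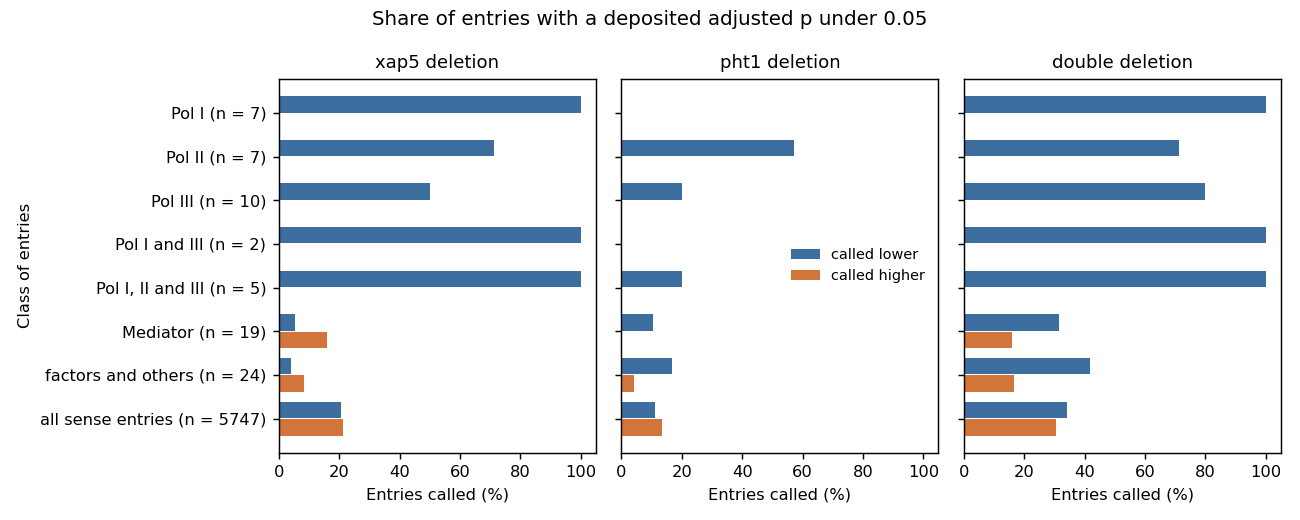
Share of entries (percent) with a deposited adjusted p under 0.05 that were lower (blue) or higher (orange) than wild type, by class, in the xap5, pht1 and double deletions; n is the number of entries. All 7 polymerase I genes were lower in the xap5 and double deletions and none was called in the pht1 deletion, while the bars for all 5747 sense entries stand at 20.6%, 11.1% and 34.3% lower.

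All 7 polymerase I subunits fell in the xap5 deletion, with deposited log2 folds in the narrow range from −0.84 to −0.62. The lowest was rpa12 (−0.84, 0.557 of the wild-type level, adjusted p = 5.44e-10), the small subunit for RNA cleavage. The largest subunit, nuc1 (SPBC4C3.05c, chrII:3127833-3133199, a gene with 1 exon), followed at −0.79 (adjusted p = 5.23e-07), and rpa43 of the stalk at −0.77 (adjusted p = 7.65e-09). The second largest subunit, rpa2, had −0.69, the paired subunits rpa34 and rpa49 had −0.64 and −0.62, and ker1 had −0.64.

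Without pht1 none of these 7 was called, and their deposited folds ran from −0.23 (nuc1) to 0.24 (rpa34). Without both genes all 7 fell again, from −0.72 for rpa34 to −1.14 for rpa49. The rpa49 transcript (SPAC2F3.03c) was at 0.455 of wild type in the authors' table (adjusted p = 3.54e-19) and rpa43 at 0.474 (adjusted p = 1.08e-16). These 2 genes were the only polymerase I genes lower by 2-fold or more. Of the 5747 sense entries, 293 were lower by that much in the double deletion. For rpa49 the fold of the double deletion lay 0.48 below the sum of both single folds (difference −0.48), the widest gap among the 7, and for rpa12 the difference was 0.03. These differences carry no error and were not tested.

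The subunits common to polymerases I and III, rpc40 and rpc19, form the assembly platform of both enzymes. Deposited folds of rpc40 were −0.80 in the xap5 deletion (adjusted p = 6.63e-10), −0.13 in the pht1 deletion (not called) and −1.00 in the double deletion (adjusted p = 4.14e-15). For rpc19 the values were −0.40, 0.05 (not called) and −0.66. Both genes thus had the call pattern of polymerase I, but this pattern was not limited to that enzyme. The polymerase III genes rpc2, rpc11, rpc25, rpc34 and rpc53 had it too. So did rpb11 of polymerase II and the common subunits rpb5, rpb6, rpb10 and rpc10.

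All 5 subunits common to the 3 enzymes fell in the xap5 and double deletions. The lowest of all 74 folds in the double deletion belonged to rpb8 (SPBC14C8.12, chrII:2223646-2224720), a small common subunit, at −1.36. This corresponds to 0.39 of the wild-type level, or a drop by 61.0% (adjusted p = 2.22e-25), and placed rpb8 at percentile 1.32 of all sense entries. Its deposited folds were −0.86 in the xap5 deletion (adjusted p = 6.32e-11) and −0.34 in the pht1 deletion (adjusted p = 0.024). Of the common subunits rpb8 was the only one called in the pht1 deletion.

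The other 4 common subunits were closer together. In the xap5 deletion rpb6 had −0.47, rpb5 −0.38, rpc10 −0.37 (adjusted p = 0.0379) and rpb10 −0.36 (adjusted p = 0.0101) in the authors' table. In the double deletion rpb6 and rpc10 reached −0.97 and −0.93, and rpb5 and rpb10 had −0.65 and −0.63. In the pht1 deletion their folds lay between −0.21 and 0.00 and were not called.

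Within polymerase II the catalytic subunits were not called, while the smaller ones fell. The largest subunit, rpb1 (SPBC28F2.12, chrII:1591140-1596744, 7 exons), carries the C-terminal repeats through which processing factors bind. Its deposited folds were −0.12 (adjusted p = 0.518), −0.29 (adjusted p = 0.118) and 0.22 (adjusted p = 0.157) in the xap5, pht1 and double deletions. For the second largest subunit, rpb2, they were −0.09, −0.30 and 0.07 (adjusted p = 0.647, 0.112 and 0.686). Neither gene was called in any comparison, and both had a higher fold in the double deletion than in either single deletion.

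The stalk subunits rpb4 and rpb7 had −0.55 and −0.31 in the xap5 deletion in the authors' table, −0.41 and −0.46 in the pht1 deletion, and −1.14 (adjusted p = 1.96e-18) and −0.88 (adjusted p = 2.66e-11) in the double deletion. For rpb9, a small subunit that acts in start site choice and proofreading, they were −0.73 (adjusted p = 0.00107), −0.61 (adjusted p = 0.0128) and −0.94 (adjusted p = 1.02e-05). The platform subunit rpb3 had −0.46, −0.50 (adjusted p = 0.000523) and −0.97 (adjusted p = 6.3e-14). Its partner rpb11 had −0.41 in the xap5 deletion, −0.18 in the pht1 deletion (not called) and −0.41 in the double deletion.

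The genes called lower in all 3 comparisons were rpb3, rpb4, rpb7, rpb9 and rpb8, so 4 belong to polymerase II alone and 1 to all 3 enzymes. They were 5 of the 74 genes (6.76%), against 257 of 5747 sense entries (4.47%). None of the 74 was higher in all 3, against 7.97% of sense entries, and none was called in opposite directions in different comparisons, against 1.65% of sense entries. The 3 comparisons share the wild-type libraries.

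The rpb3 entry spans 4102 bases and overlaps other listed genes on the opposite strand, and rpb9 overlaps another listed gene on its own strand. The stalk genes rpb4 and rpb7 also overlap a gene on the opposite strand, so each of the 4 polymerase II genes called in the pht1 deletion overlaps another gene. In all, 36 of the 74 genes overlap another gene of the sense table, 31 on the opposite strand and 5 on the same strand (rox3, rpb9, rpc25, rpc34 and rtr1). The polymerase I genes rpa34 and rpa49 and the common subunit genes rpb5 and rpb8 are among those with an overlap on the opposite strand. The sources used here do not say how shared reads were assigned. Short stretches of rpb1 and med15 occur more than once in the genome (0.343% and 0.0879% of their distinct 50-base windows). Copies within the same gene were counted as repeats. Without overlapping genes and these 2 genes, 2 polymerase II subunits were left (rpb2 and rpb11). Their median log2 fold was −0.24 without pht1 and −0.17 without both genes.

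**Figure D2:**
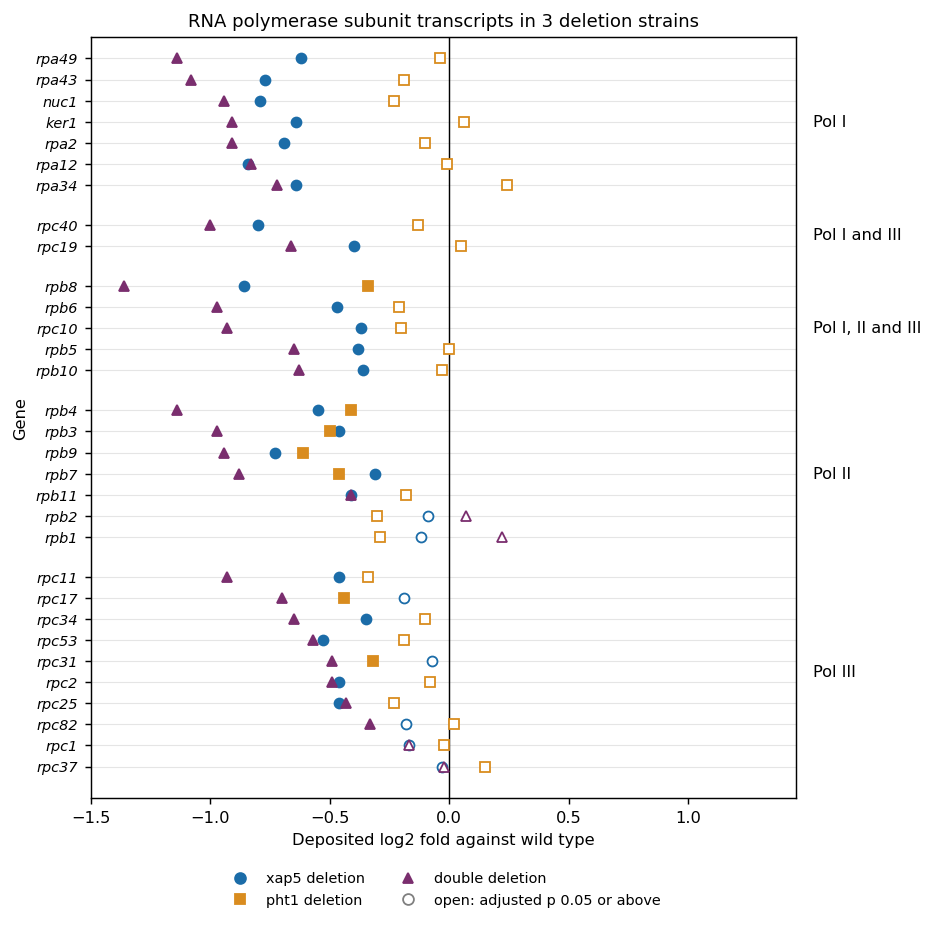
Deposited log2 fold against wild type (horizontal axis) for the 31 polymerase subunit genes, grouped by enzyme and ordered by the double deletion; circles are the xap5 deletion, squares the pht1 deletion and triangles the double deletion, filled where the adjusted p was under 0.05. Polymerase I triangles lie between −1.14 and −0.72, while those of rpb1 and rpb2 are open and lie at 0.22 and 0.07.

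Polymerase III held subunits that fell and subunits that were not called. Its largest subunit, rpc1 (SPBC651.08c, chrII:1249831-1254446), was called in no comparison (deposited folds −0.17, −0.02 and −0.17). The second largest subunit, rpc2, had deposited folds of −0.46 without xap5 (adjusted p = 0.000644), −0.08 without pht1 (adjusted p = 0.675) and −0.49 without both (adjusted p = 0.000133). Thus both catalytic subunits were lower in polymerase I, 1 of 2 in polymerase III and 0 of 2 in polymerase II, in the xap5 deletion and in the double deletion alike.

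Of the smaller polymerase III subunits, rpc53, which acts with rpc37 in initiation and termination, had the lowest fold in the xap5 deletion (−0.53, adjusted p = 0.00012), and −0.57 in the double deletion. Its partner rpc37 was called nowhere (−0.03, 0.15 and −0.02). The cleavage subunit rpc11 had −0.46 (adjusted p = 0.0299) and, in the double deletion, −0.93 (adjusted p = 2e-06), the lowest polymerase III value there.

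The stalk subunits of polymerase III did not share a pattern of calls. The deposited folds of rpc25 were −0.46, −0.23 (not called) and −0.43, while rpc17 had −0.19 (not called), −0.44 (adjusted p = 0.0449) and −0.70 (adjusted p = 0.000164). Of the subunits that act together in initiation, rpc34 had −0.35, −0.10 (not called) and −0.65. Its partners rpc31 (−0.07, −0.32 and −0.49) and rpc82 (−0.18, 0.02 and −0.33) were not called in the xap5 deletion. The call of rpc31 in the pht1 deletion had an adjusted p of 0.0387, and rpc82 was lower in the double deletion with an adjusted p of 0.0136.

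The double deletion lay below both single deletions in 26 of the 31 polymerase subunits (83.9%), against 41.1% of 5744 sense entries. By enzyme this held for 6 of 7 polymerase I genes, 5 of 7 polymerase II genes, 8 of 10 polymerase III genes, and all genes of the shared classes (2 of 2 and 5 of 5). The double deletion fold minus the sum of the single folds had a median of −0.12 for polymerase I, 0.18 for polymerase II and −0.08 for polymerase III, against −0.03 for all sense entries. Among polymerase II genes it ranged up to 0.64 for rpb1 and 0.46 for rpb2. No error belongs to these differences.

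The genes of the 6 catalytic subunits are long, at 5605 bases for rpb1, 5367 for nuc1, 4616 for rpc1, 3870 for rpa2, 3750 for rpb2 and 3564 for rpc2. Genes of similar length were called lower in polymerase I (nuc1 and rpa2) and not called in polymerase II (rpb1 and rpb2). Over 5039 coding entries, which share the libraries, the rank correlation of gene length with the deposited fold was 0.02, −0.13 and 0.06 in the xap5, pht1 and double deletions. The 782 coding entries of 3000 to 6000 bases had median log2 folds of −0.01, −0.10 and 0.01. Whether gene length bears on the calls of the 6 catalytic subunit genes was not tested.

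Mediator genes went both ways. In the xap5 deletion 3 of 19 rose and 1 fell. They were med13 (srb9) of the kinase module at 0.48 (adjusted p = 0.000589), med8 of the head at 0.44 (adjusted p = 0.0121) and med1 of the middle at 0.42 (adjusted p = 0.00301), and, lower, med10 of the middle at −0.32 (adjusted p = 0.0304). The shares of 15.8% higher and 5.26% lower lie below those of all sense entries.

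In the pht1 deletion 2 Mediator genes fell, the head subunit gene med6 (deposited as Pmc5, −0.54, adjusted p = 0.00421) and the middle subunit gene med7 (−0.40, adjusted p = 0.0101), and 0 rose. The share lower was 10.5%, against 11.1% of all sense entries, and 13.5% of all sense entries were higher. In the double deletion 6 fell (31.6%) and 3 rose (15.8%), where 34.3% of all sense entries were lower and 30.5% higher. The lowest there were med6 at −1.00 (adjusted p = 4.2e-09), med11 at −0.94 (adjusted p = 4.18e-06) and med18 at −0.87 (adjusted p = 1.14e-10). The others were med10 (−0.53), med14 (−0.35) and med7 (−0.29). The higher ones were med13 at 0.75 (adjusted p = 6.24e-09), med15 at 0.46 (adjusted p = 0.000337) and srb7 at 0.40 (adjusted p = 0.00284).

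For med11 the double deletion lay 0.79 below the sum of its single folds (difference −0.79), since its own deposited folds in the xap5 and pht1 deletions were −0.21 and 0.06. Of the genes for the head module, med6, med11 and med18 were lower in the double deletion, and med8, med20, srb4 and srb6 were not called there. The folds of med8 and med20 there were 0.22 and −0.21. The folds of srb4 were −0.25, −0.42 (adjusted p = 0.0656) and −0.37, and those of srb6 were 0.29, 0.30 and 0.33 (adjusted p = 0.0505). The 8 Mediator genes called in no comparison were med20, med31, pmc3, pmc4, rox3, srb4, srb6 and srb8. Of the kinase module genes whose descriptions did not meet the wording, srb10, the Mediator kinase, rose in the double deletion (0.46, adjusted p = 0.00564) and srb11, its cyclin, was not called.

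**Figure D3:**
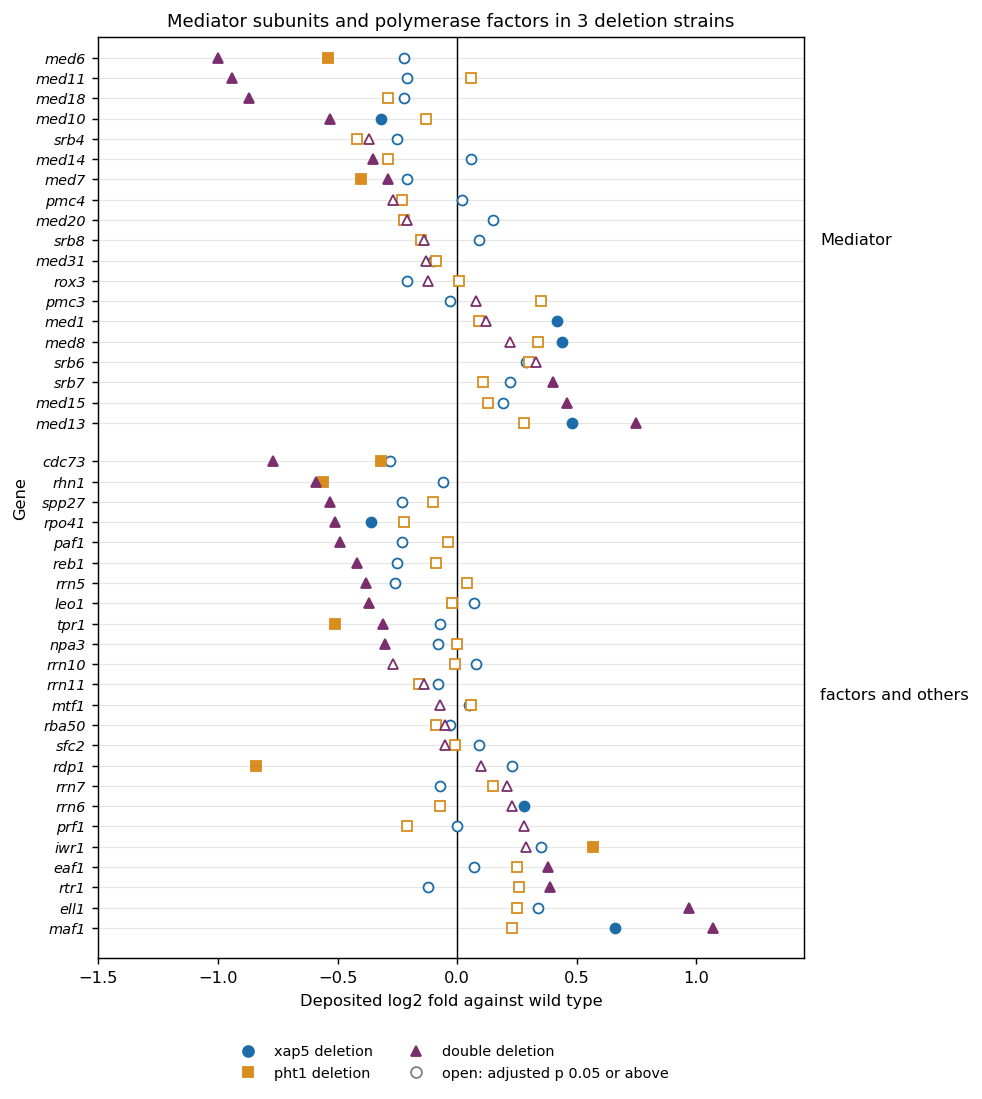
Deposited log2 fold against wild type (horizontal axis) for the 19 Mediator genes and the 24 factors and other entries, ordered by the double deletion within each group; circles are the xap5 deletion, squares the pht1 deletion and triangles the double deletion, filled where the adjusted p was under 0.05. Values spread to both sides of 0, from −1.00 for med6 to 1.07 for maf1 in the double deletion.

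Among the 24 factors the xap5 deletion called 2 higher and 1 lower, the pht1 deletion 1 higher and 4 lower, and the double deletion 4 higher and 10 lower. The shares lower were 4.17%, 16.7% and 41.7%, against 20.6%, 11.1% and 34.3% of all sense entries. The shares higher were 8.33%, 4.17% and 16.7%, against 21.1%, 13.5% and 30.5%. The repressor of polymerase III, maf1 (SPAC31G5.12c, chrI:3007584-3009378), rose to 1.58 times wild type in the xap5 deletion (log2 fold 0.66, adjusted p = 0.00124) and to 2.10 times in the double deletion (1.07, adjusted p = 1.62e-08), with 0.23 (adjusted p = 0.378) in the pht1 deletion. It was the only gene of the 74 higher by 2-fold or more. In the double deletion 869 of 5747 sense entries rose that far, and maf1 stood at percentile 85.9 of all sense entries.

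Of the polymerase I factors among the 74, rrn6 was the only one called in the xap5 deletion. This core factor gene was higher (0.28, adjusted p = 0.0464), and rrn11 was not called (−0.08). Of the genes annotated to the upstream activation factor, rrn5 (−0.26), spp27 (−0.23), rrn7 (−0.07) and rrn10 (0.08) were not called in the authors' table. Without both genes spp27 (−0.53), rrn5 (−0.38) and the terminator protein gene reb1 (−0.42) fell. The factor of the 5S RNA genes, sfc2 (TFIIIA), had folds between −0.05 and 0.09 and was not called.

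Of the polymerase II factors among the 74, none was called in the xap5 deletion, and the calls came from the pht1 and double deletions. The Paf1 complex, which travels with elongating polymerase II, had cdc73 lower in both (−0.32, adjusted p = 0.0399, and −0.77, adjusted p = 5.24e-09). Its subunit tpr1 was lower in both too (−0.51 and −0.31), and paf1 and leo1 were lower in the double deletion (−0.49 and −0.37), while prf1 was not called. The termination factor gene rhn1 fell without pht1 (−0.56, adjusted p = 0.0039) and without both genes (−0.59, adjusted p = 0.000759).

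A few factors rose. The elongation factor genes ell1 and eaf1, whose products act as a pair, were higher in the double deletion (deposited log2 folds 0.97, adjusted p = 2.73e-05, and 0.38, adjusted p = 0.0212), as was rtr1, which encodes a phosphatase of the polymerase II tail (0.39, adjusted p = 0.0456). The import factor gene iwr1 was higher in the pht1 deletion (0.57, adjusted p = 0.00213) and was not called in the double deletion (0.29). The chaperone-linked ATPase gene npa3 fell in the double deletion (−0.30, adjusted p = 0.0292).

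The polymerases outside the nuclear enzymes I to III had patterns of their own. The mitochondrial polymerase gene rpo41 fell in the xap5 and double deletions (−0.36, adjusted p = 0.00929, and −0.51, adjusted p = 6.14e-05), while the gene of its specificity factor, mtf1, was not called. The RNA-directed RNA polymerase gene rdp1 (SPAC6F12.09, chrI:1324941-1329061), which makes double-stranded RNA for RNA interference, had the lowest fold of all 74 in the pht1 deletion (−0.84, adjusted p = 8.63e-10, percentile 0.974 of all sense entries). In the double deletion its deposited fold was 0.10 (adjusted p = 0.467), and the double fold minus the sum of the single folds was 0.71.

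Across all 74 genes, 19 were called in no comparison (25.7%), against 26.9% of all sense entries. The genes nearest the limit of 0.05 were rrn6 (inside, adjusted p = 0.0464) and cdc73 (outside, 0.0551) in the xap5 deletion, rpc17 (inside, 0.0449) and srb4 (outside, 0.0656) in the pht1 deletion, and tpr1 (inside, 0.0459) and srb6 (outside, 0.0505) in the double deletion.

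Antisense signal was listed for 11 of the 74 genes (14.9%), against 20.6% of coding entries of the sense table. The antisense table lists features with a change, so antisense values of the other genes were not used here. Of the 11, 9 rose in the double deletion and 1 fell (76.7% and 9.55% of the antisense table), in the pht1 deletion 5 rose and 0 fell (42.6% and 3.78%), and in the xap5 deletion 2 rose and 0 fell (33.0% and 1.6%). The medians over the 11 were 0.64, 0.94 and 1.74 in the xap5, pht1 and double deletions, beside 0.71, 0.82 and 1.44 over the table.

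The largest antisense fold was at rrn6 (SPBC3B8.11, chrII:3369297-3372287, minus strand). Its deposited antisense log2 folds were 1.34 (adjusted p = 0.0284), 1.29 (adjusted p = 0.0244) and 3.35 (adjusted p = 1.56e-16), the last a 10.2-fold increase, while its sense fold in the double deletion was 0.23 and not called. On the log2 scale antisense signal at rpc2 rose in each comparison, by 1.81, 1.71 and 1.97 (adjusted p = 0.000139, 0.000399 and 3.36e-06). These 2 genes were the only ones of the 11 with higher antisense signal in all 3 deletions.

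At the Mediator kinase module genes the antisense signal rose in the double deletion, by 2.16 at med13 (adjusted p = 9.58e-16) and by 2.15 at srb8 (adjusted p = 0.0068). The sense fold of med13 was higher (0.75) and that of srb8 was not called (−0.14). Antisense signal at med18 rose by 2.12 (adjusted p = 0.00886) and at nuc1 by 1.54 (adjusted p = 0.00183) in the double deletion, and the sense signal of both fell. At rpc1 it rose by 1.74 (adjusted p = 0.000239) with no call on the sense strand. The eaf1 antisense signal rose by 1.21 without pht1 and by 1.55 without both genes. A noncoding RNA on the opposite strand, SPNCRNA.1236, covers 7.55% of the eaf1 span. Its sense folds were 0.82, 0.79 and 1.41 in the xap5, pht1 and double deletions. How much of the antisense value at eaf1 comes from this neighbour was not tested.

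Antisense signal at med6 rose by 1.18 in the double deletion (adjusted p = 7.17e-06). On the opposite strand itt1 covers 63.3% of the med6 span, and the sense entry of itt1 rose by 0.95 there (adjusted p = 6e-14). Another coding gene, SPAC1002.20, covers 5.51% of it and had sense folds of 2.98, 1.42 and 3.87. How much of the antisense value at med6 comes from these neighbours was not tested.

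At rdp1 antisense signal rose only in the pht1 deletion (0.81, adjusted p = 0.00153), the comparison in which its sense fold was −0.84. The exception in direction was rpc11, where antisense signal had folds of −1.87 (adjusted p = 0.0633) and −3.41 (adjusted p = 0.000132) in the xap5 and double deletions. An annotated noncoding RNA, SPNCRNA.2517, spans all of rpc11 on the opposite strand in RefSeq, and SPNCRNA.3016 likewise spans all of rpc2. Of the 9 genes with higher antisense signal in the double deletion, 4 had a lower sense fold (rpc2, nuc1, med6 and med18), 2 a higher one (med13 and eaf1) and 3 no call (rrn6, rpc1 and srb8). Of all sense entries 34.3% were lower and 30.5% higher in that comparison. Whether the sense and antisense changes are linked was not tested.

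**Figure D4:**
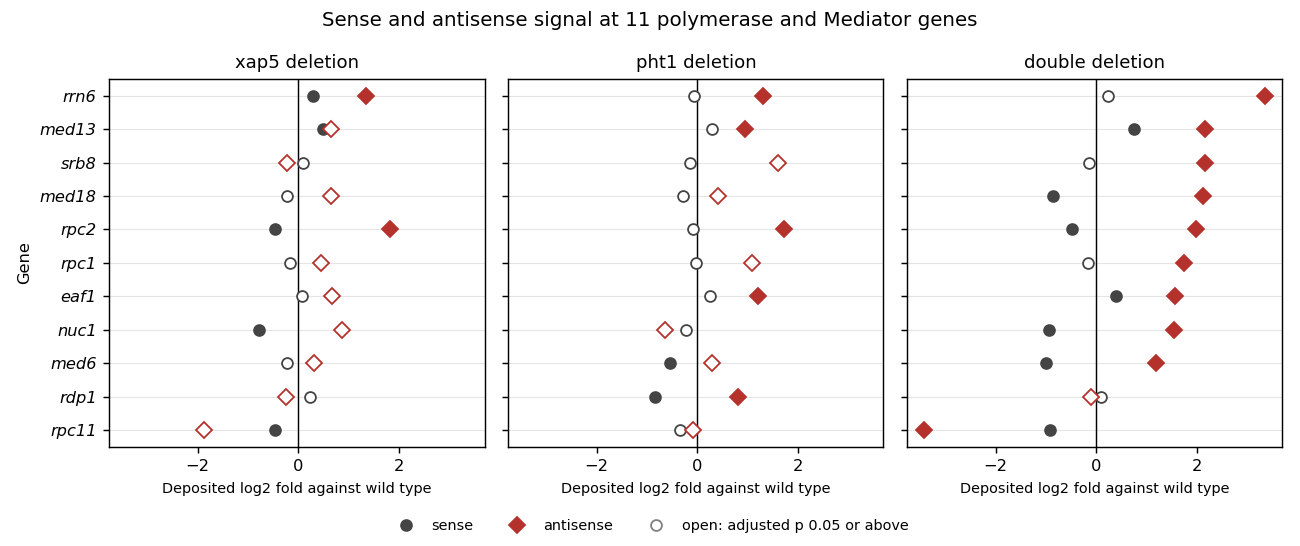
Deposited log2 fold against wild type (horizontal axis) of the sense signal (grey circles) and the antisense signal (red diamonds) at the 11 genes with an antisense entry, by deletion; filled symbols had an adjusted p under 0.05. In the double deletion the antisense symbols of 9 genes are filled and lie between 1.18 and 3.35, and that of rpc11 lies at −3.41.

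Genes of the same pathways outside the 74 were counted from lists chosen with earlier results of these data known. Of 33 genes for general factors of polymerase II, 4 were higher and 2 lower in the xap5 deletion, 1 and 1 in the pht1 deletion, and 7 and 7 in the double deletion. The shares higher were 12.1%, 3.03% and 21.2%, below the 21.1%, 13.5% and 30.5% of all sense entries. The shares lower were 6.06%, 3.03% and 21.2%, below 20.6%, 11.1% and 34.3%. The TATA-binding protein gene tbp1, whose product serves all 3 polymerases, had deposited folds of 0.88 without xap5 (adjusted p = 5.71e-09) and 1.30 without both genes (adjusted p = 3.58e-19). Next came toa1 of TFIIA (0.46) in the xap5 deletion and the TFIIB gene sua7 (0.95) in the double deletion. The lowest were taf3 (−0.52) and tfb1 (−0.49) in the xap5 deletion, and tfb1 (−0.79) and taf12 (−0.58) in the double deletion. In the pht1 deletion taf8 was higher (0.55) and tfb2 lower (−0.50).

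The polymerase I factor genes rrn3 and acr1 both fell in the xap5 deletion (−0.35 and −0.38) and in the double deletion (−0.45 and −0.46) and were not called in the pht1 deletion. Of 8 genes for TFIIIB and TFIIIC, the initiation factors of polymerase III, 2 rose in the xap5 deletion (sfc1 at 0.60 and sfc3 at 0.47). In the pht1 deletion 1 fell (sfc4 at −0.59). Without both genes 3 rose, led by sfc3 (0.85) and sfc1 (0.59), and 3 fell, among them sfc6 (−0.44) and sfc9 (−0.43). Of the 8, 25.0%, 0% and 37.5% were higher in the xap5, pht1 and double deletions, beside 21.1%, 13.5% and 30.5% of all sense entries. The shares lower were 0%, 12.5% and 37.5%, beside 20.6%, 11.1% and 34.3%.

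Elongation factor genes of polymerase II were lower in 2, 2 and 6 of 12 cases in the xap5, pht1 and double deletions, with 0 higher in each. The shares lower were 16.7%, 16.7% and 50%, beside 20.6%, 11.1% and 34.3% of all sense entries. They included the TFIIS gene tfs1 (−0.56 in the xap5 and −0.95 in the double deletion), and spt5 (−0.42) and spt6 (−0.39) in the pht1 deletion. The gene listed as elf1 is annotated here as an ATPase of the AAA family and was left out of these counts. Its deposited folds of −0.99 and −1.17 in the xap5 and double deletions would make the counts 3, 2 and 7 of 13. Of 6 termination factor genes, fcp1, a phosphatase of the polymerase II tail, was lower in all 3 comparisons (−0.28, −0.38 and −0.27), and pcf11 (0.42) and seb1 (0.36) were higher in the pht1 deletion. These calls make 16.7% of the 6 lower in each comparison and 33.3% higher in the pht1 deletion, where 13.5% of all sense entries were higher.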

How the data were processed

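Strand-specific, random-primed libraries of RNA depleted of ribosomal RNA were sequenced as single reads of 100 bases in 2 lanes, per the labels' protocols. The submitters' processing notes name BWA 0.5.8c and edgeR. How counts were normalized and reads assigned is not given in these sources. The authors deposited tables of their own comparisons, in which each feature has a log2 fold, a p-value and its adjusted form. The authors' header reads logFC, and base 2 was taken from the convention of edgeR. Some unadjusted values deposited by the authors exceed 1 (55 in the sense table, highest 1.17, and 6 in the antisense table), so they were handled as a score, and calls used the adjusted p-value under 0.05. The depth of single libraries is unknown here, and no count interval can be given. No test was added.

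The genes, classes and lists were chosen with earlier results of these data known. Named genes are the largest and second largest subunits, the 3 called genes with the largest fold in each direction and class, genes called in all comparisons, those with an antisense entry, those nearest the threshold and, in the other lists, the 2 with the largest fold in each direction. Others were named after their values were seen, to account for all members. Protein sequences were not used here. Coordinates, gene spans and promoters are from RefSeq ASM294v3, whose locus tags matched 5639 of the 5747 sense entries. The antisense table's header names an Ensembl annotation, so gene limits may differ. Calculations used Python 3.11.15 with pandas 2.3.3 and scipy 1.17.1, checked on simulated data.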

Additional observations from a re-analysis of the deposited data

How the results depend on the processing

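Class medians were compared under folds centred on the median of all sense entries, class means, and shared subunits counted in every enzyme. None moved by over 1 SD of the class members. Benjamini-Hochberg values recomputed from the same deposited p-values, which were handled as a score, moved no class count by over 1.5 times. The medians used for centring were −0.01, −0.02 and −0.05 in the xap5, pht1 and double deletions. These were smaller in size than any called fold, so no called value could change its sign. The Mediator median in the xap5 deletion went from 0.02 to −0.03 without overlapping or repeated genes. Of 95 called values of single genes, 20 were lost with an adjusted p under 0.01 and 42 with a log2 fold of at least 0.5 in either direction. With the fold of at least 0.5, the xap5 deletion had 12 genes lower and 1 higher of the 74, 2 lower for polymerase II, 1 lower for polymerase III and 0 lower and 0 higher for Mediator. The pht1 deletion then had 6 lower in all, 2 for polymerase II, 0 for polymerase III and 1 for Mediator. The double deletion had 3 higher in all, 4 lower for polymerase III and 1 higher for Mediator. With an adjusted p under 0.01, the xap5 deletion had 3 higher in all, 3 lower for polymerase III, 0 lower for Mediator and 1 antisense entry higher. The pht1 deletion had 7 lower in all, 0 for polymerase III and 1 for Mediator. With subunits alone the genes higher were 3, 0 and 3 in the xap5, pht1 and double deletions. Without overlapping or repeated genes the polymerase II medians were −0.24 in the pht1 and −0.17 in the double deletion, from 2 genes. Fewer genes or a stricter limit enter these alternatives by their construction. The shares of all sense entries at the stricter limits are not given here, so these counts cannot be set beside a background. No paired analysis was possible because the tables hold comparisons and no values of single libraries, and for that reason no library was left out in turn. Single-library depth was not used here, so a gene not called may differ by less than these libraries can show.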
